A study of Arabidopsis thaliana with 8 samples.

Results

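The genes described here are 43 Arabidopsis thaliana loci that perceive light or carry the light and shade signal, chosen by locus from a list of phytochromes, cryptochromes, phototropins, the UV-B receptor, COP1 and the SPA proteins, and their downstream transcription factors. All 43 were among the 27634 rows of the deposited tables, and all 43 passed the filter on low counts and belonged to the 18155 genes tested. Transcripts were measured by RNA-seq in rosette leaves of 24-day-old plants, grown for 11 days on plates and then for 13 days on soil. The 2 groups were the wild type (WT) and DLK2-OE1, a line overexpressing DLK2 (DWARF14-LIKE 2), an α/β hydrolase related to the strigolactone receptor D14, with 4 libraries each. Both groups had the same growth conditions, and the labels give no further allele or treatment. The labels do not give the promoter of the transgene, the ecotype, the time of day of harvest or whether plants were pooled. All 4 overexpressing libraries came from a single line, so DLK2 and any other difference between that line and WT cannot be told apart. The comparison asks which light-signalling transcripts differ in the leaf between this line and WT.

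Plants read red and far-red light with phytochromes, blue light with cryptochromes and phototropins, and UV-B with UVR8. In the dark, the E3 ubiquitin ligase COP1 works with SPA proteins to mark light-promoting factors such as HY5 for degradation, and active photoreceptors inhibit COP1/SPA. PIFs are bHLH transcription factors that promote elongation growth and are targeted by active phytochromes. In shade, where far-red light is enriched, phytochrome B is inactivated and PIFs switch on genes such as ATHB2, PIL1 and HFR1. HFR1, PAR1 and PAR2 in turn inhibit PIFs, and FHY1 and FHL carry phytochrome A into the nucleus.

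Library totals ranged from 18097159 to 22139801 counts. DLK2 (AT3G24420), the overexpressed gene, was at 60.4, 73.5, 85.1 and 73.4 CPM in WT replicates 1 to 4 and at 120, 150, 137 and 145 CPM in DLK2-OE1 replicates 1 to 4, where CPM is counts scaled to a common library size after TMM (trimmed mean of M-values) normalization. The genotypes did not overlap at DLK2, with a log2 fold change of 0.92 (SE 0.12). The adjusted p was 0.0178 in edgeR's quasi-likelihood fit, corrected by Benjamini-Hochberg over all tested genes, as is every adjusted p given below unless another tool is named. That call was lost without WT replicate 1 (adjusted p = 0.0670), WT replicate 3 (0.0548) or DLK2-OE1 replicate 1 (0.0574). DLK2-OE1 replicates 1 and 2 stood apart from the other libraries, at 61.5 and 87.4 on the first principal component against 11.2 and -8.16 for replicates 3 and 4 and -47.5 to -27.7 for WT. Marker genes of other cell types moved with genotype and with this split. The summed FPKM of 4 shoot meristem markers was 0.125 to 1.21 in WT and 29.3, 51.9, 6.09 and 5.88 in DLK2-OE1, with 3 of 4 called higher. STM, KNAT1 and KNAT2 had 0 counts in WT replicates 1, 3 and 4. The sum of 5 markers of dividing cells was 3.43 to 5.02 in WT and 25.4, 34.1, 10.9 and 7.90 in DLK2-OE1 (4 of 5 higher). For 5 xylem markers it was 8.75 to 29.8 in WT and 77.4, 126, 39.1 and 26.0 in DLK2-OE1 (3 of 5 higher). Flower markers summed to 10.4 to 35.0 in WT and 3.62 to 8.61 in DLK2-OE1, with 1 of 2 tested called lower. Leaf mesophyll markers, which check the labelled tissue, summed to 21400 to 29220 in WT and 16090 to 26580 in DLK2-OE1. All 5 had a negative log2 fold change, with a median of -0.43 against 0.0039 over all tested genes. Guard cell markers summed to 57.4 ± 7.66 FPKM in WT and 44.3 ± 9.46 in DLK2-OE1 (SD, n = 4), with 3 of 4 negative. The 4 epidermis markers summed to 101.8 to 148 in WT and 263, 355, 188 and 151 in DLK2-OE1, with no overlap and the highest sums in replicates 1 and 2. None of the 5 mesophyll, 4 epidermis, 4 guard cell or 3 phloem markers passed by edgeR, where 0, 2, 1 and 1 of them had an unadjusted p under 0.05 and DESeq2 called 0, 2, 0 and 1. With limma-voom, none of the meristem, dividing cell, xylem and flower markers passed. Over all tested genes, edgeR called 3.69% and 26.3% had an unadjusted p under 0.05, and DESeq2 called 13.8% of the genes it tested. The 3 root markers were too low to test, and RHD6 and EXPA7 were at 0 counts in all libraries. The part of these shifts in the results below was not tested. In such bulk samples, fewer cells of a type and less RNA per cell cannot be told apart. Nothing in the labels says that replicates were separate plants, so the spread behind every p-value here is that between libraries and may be technical.

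SPA1 and SPA4 fell in DLK2-OE1, and they were the only members that edgeR called, meaning an adjusted p under 0.05. The other 41 members, including COP1 and all photoreceptors, did not pass. The 2 calls are 4.65% of the members, against 3.69% of all tested genes called in either direction, 1.58% called lower and 2.12% called higher. With DESeq2 the share was 20.9% of members (9 genes, 3 higher and 6 lower) against 13.8% of the 20441 genes it tested (8.62% higher and 5.19% lower). With limma-voom it was 4.65% (2 genes, again SPA1 and SPA4) against 1.46%, or 0.865% called lower. The genotypes did not overlap in CPM for 11 members (25.6%, against 15.2% of tested genes), with PHYA and NPH3 higher and 9 lower, against 7.87% and 7.29% of tested genes. An unadjusted p under 0.05 was found for 18 members (41.9%, against 26.3%), and a log2 fold change of at least 0.5 in size for 10 (23.3%, against 22.1%). The median log2 fold change of the members was -0.13, with 13 positive and 30 negative, against 0.0039 over all tested genes.

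**Figure D1:**
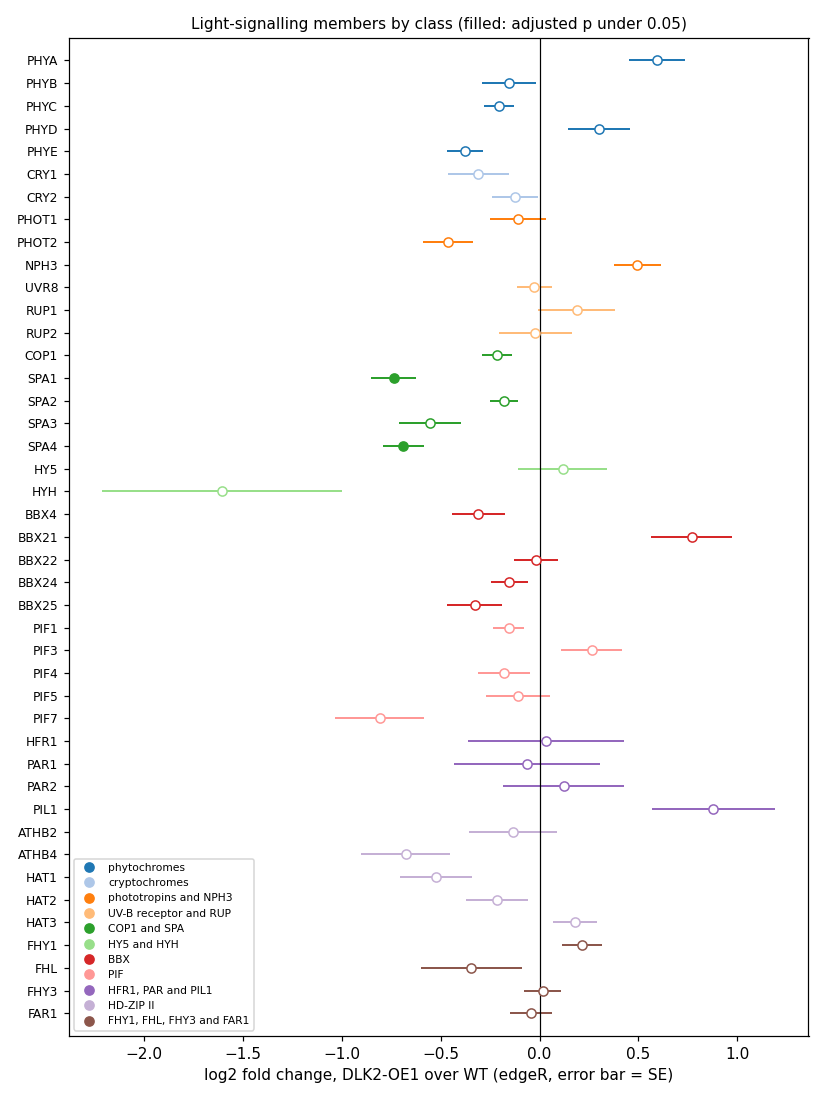
The log2 fold change of DLK2-OE1 over WT for the 43 members in class order, from edgeR, with bars of 1 SE (4 libraries a group). Filled points, at SPA1 and SPA4, passed an adjusted p of 0.05. All 5 COP1 and SPA points lie below 0, and the widest bar is that of HYH.

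The direction of small differences depended on the scale. On FPKM, the deposited level scaled by transcript length and library size, the median log2 ratio was 0.14 over all tested genes that reached 1 FPKM in 4 libraries, and the deposited FPKM carry no TMM factor. On that scale 21 members were positive and their median was -0.0020. CRY2, PHOT1, UVR8, RUP2, BBX22, PIF5, PAR1 and FAR1 had a negative sign in CPM and a positive one in FPKM, and none of them passed. The genotypes did not overlap in FPKM for 8 members (18.6%, against 15.5% of tested genes), and PHYA, PHYE, PHOT2, NPH3, SPA1 and SPA4 were apart on both scales. ATHB4 and FHY1 were apart in FPKM only, and PHYC, COP1, SPA2, BBX25 and PIF1 in CPM only. Annotated neighbours share bases with several members, among them PHYE (60 bases), NPH3 (24), BBX24 (344) and BBX25 (48), so their counts carry some uncertainty. The neighbour of BBX25, AT2G31390, had 364 to 1806 counts in a library, against 75 to 115 for BBX25. PIF1 shares 334 bases with AT2G20170, which had at most 1 count in a library.

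SPA1 and SPA4 encode WD-repeat proteins with a kinase-like region that bind COP1. SPA1 (AT2G46340) spans chromosome 2 from 19022154 to 19027528 (minus strand) and SPA4 (AT1G53090) chromosome 1 from 19783185 to 19786902 (plus strand), in TAIR10.1 (RefSeq). The 250 bases before the annotated start of each are shown because these are the genes called. They run from 5′ to 3′ on the gene's strand, at chr2:19027529-19027778 (minus) and chr1:19782935-19783184 (plus), with a match to the CCA1-binding site in capitals.
SPA1: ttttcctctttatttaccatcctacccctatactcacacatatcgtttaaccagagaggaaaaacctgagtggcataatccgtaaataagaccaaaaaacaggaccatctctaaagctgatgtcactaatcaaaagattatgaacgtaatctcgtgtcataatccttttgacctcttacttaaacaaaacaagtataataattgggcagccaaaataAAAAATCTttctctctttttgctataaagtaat
SPA4: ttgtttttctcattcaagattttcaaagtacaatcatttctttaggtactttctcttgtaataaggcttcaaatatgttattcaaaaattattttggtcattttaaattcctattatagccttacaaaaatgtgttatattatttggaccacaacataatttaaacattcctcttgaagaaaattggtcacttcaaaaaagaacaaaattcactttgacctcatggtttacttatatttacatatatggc
Both strands of these windows were searched for the G-box CACGTG, which PIFs and HY5 can bind, the PBE-box CACATG, which PIFs can bind, and for the clock motifs AAAATATCT (evening element) and AAAAATCT (CCA1-binding site). Each motif was counted on its own, so partly overlapping matches would count for both. The SPA1 window held 1 CCA1-binding site, while the SPA4 window held none of the searched motifs. Over windows of the same length, the CCA1-binding site was found in 6.69% of 27443 genes and in 1 of the 43 members. The G-box was found in 6.49% of genes and in 5 members (PHYB, PHYD, PIF5, FHL and FAR1). The PBE-box was found in 11.1% of genes and in 7 members, and the evening element in 2.36% and 1 member, BBX24. These matches describe the letters and not binding.

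All 5 COP1 and SPA genes were lower in DLK2-OE1, with SPA1, SPA4 and SPA3 differing most and COP1 and SPA2 least. SPA1 was at 99.5, 91.5, 108 and 88.4 CPM in WT replicates 1 to 4 and at 60.9, 48.5, 64.4 and 58.5 CPM in DLK2-OE1 replicates 1 to 4. Every WT library was above every DLK2-OE1 library, and the lowest was DLK2-OE1 replicate 2. The raw counts behind SPA1 were 1688, 1862, 2179 and 1732 in WT and 1216, 1130, 1202 and 1036 in DLK2-OE1. Its mean fell from 96.9 ± 8.92 CPM (SD, n = 4) to 58.1 ± 6.85 CPM (SD, n = 4), a WT level 1.67-fold that of DLK2-OE1. On the log2 scale this was -0.74 (SE 0.11), at adjusted p = 0.0200 in edgeR.

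SPA4, which acts mainly in light-grown seedlings and adult plants, showed a change of like size at a lower level. It was at 17.2, 15.1, 17.0 and 16.4 CPM in WT and at 10.5, 9.10, 11.5 and 9.59 CPM in DLK2-OE1. Here too the genotypes did not overlap, and the spread within each was under 3 CPM. The raw counts were 291, 307, 342 and 322 in WT and 210, 212, 215 and 170 in DLK2-OE1. The mean fell from 16.4 ± 0.944 to 10.2 ± 1.07 CPM (SD, n = 4 each), or -0.69 on the log2 scale (SE 0.11, adjusted p = 0.0200 in edgeR). SPA4 shares 3 bases at its end with AT1G53100 on the other strand, which had 16 to 50 counts in a library.

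Both calls depended on single libraries. Both were lost without WT replicate 1 (adjusted p = 0.0720 for each), without WT replicate 3 (0.0893 for each) and without DLK2-OE1 replicate 1 (0.0747 for each). Over all tested genes, 13, 0 and 14 passed in these omissions, in the same order, against 670 with all libraries. The log2 fold changes over the 8 omissions ran from -0.79 to -0.66 for SPA1 and from -0.76 to -0.64 for SPA4. Without both DLK2-OE1 replicates 1 and 2, where the meristem and xylem markers were highest, they were -0.65 (adjusted p = 0.0607) and -0.62 (0.0827). In the FPKM fits SPA1 passed, whereas SPA4 did not (adjusted p of 0.0691 to 0.116).

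SPA3 (AT3G15354), the closest relative of SPA4, was at 18.5, 14.5, 18.0 and 12.5 CPM in WT and at 13.0, 9.70, 10.6 and 9.87 CPM in DLK2-OE1. WT replicate 4 lay below DLK2-OE1 replicate 1, so the genotypes overlapped. The log2 fold change was -0.55 (SE 0.16), at adjusted p = 0.0728 by edgeR and 0.0212 by DESeq2, and the adjusted p lay between 0.0212 and 0.256 over 18 alternatives. SPA3 shares 135 bases with AT3G15350 on the other strand. That neighbour had 253 to 398 counts in WT and 217 to 351 in DLK2-OE1 (log2 fold change -0.38, adjusted p = 0.176 by edgeR). SPA3 itself had 244 to 363 and 175 to 260 counts. The part of this overlap in the SPA3 difference was not tested. COP1 itself (AT2G32950) was at 26.9, 27.1, 25.3 and 25.6 CPM in WT and at 23.8, 23.3, 22.0 and 21.3 CPM in DLK2-OE1. The genotypes did not overlap at COP1 in CPM. The difference was small, with a log2 fold change of -0.21 (SE 0.076) and an adjusted p of 0.121 by edgeR. In FPKM the genotypes overlapped at COP1, with a log2 ratio of -0.055, and at SPA2, with -0.026. COP1 also had the smallest relative spread of all members among WT libraries, a coefficient of variation of 3.45% against a median of 12.7% over all tested genes. SPA2, which acts mainly in dark-grown seedlings, was at 40.3 ± 2.1 and 35.6 ± 0.860 CPM (SD, n = 4), with a log2 fold change of -0.18 (SE 0.073) and an adjusted p of 0.159 by edgeR.

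**Figure D2:**
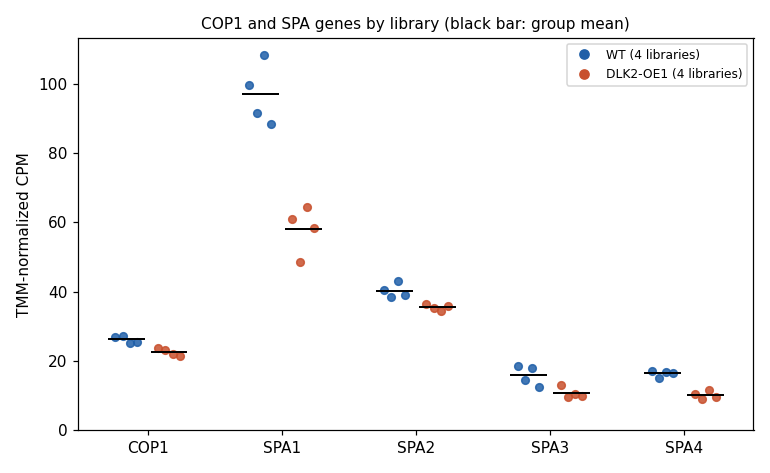
TMM-normalized CPM of COP1 and SPA1 to SPA4 in each library (WT blue, DLK2-OE1 red, 4 libraries each), with the group mean as a black bar. The groups are apart for COP1, SPA1, SPA2 and SPA4 and overlap for SPA3. The SPA1 means are 96.9 and 58.1 CPM.

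The class median was -0.55 on the log2 scale, against 0.0039 over all tested genes. All 5 COP1 and SPA genes had an unadjusted p under 0.05 (100%, against 26.3% of all tested genes). DESeq2 called SPA1, SPA3 and SPA4 (60%, against 13.8% of the genes it tested). Per length, SPA1 was the most abundant of the 5 genes in WT at 24.2 ± 2.04 FPKM (SD, n = 4). COP1 at 10.6 ± 0.297 and SPA2 at 9.65 ± 0.572 FPKM overlapped each other, and so did SPA4 at 5.63 ± 0.465 and SPA3 at 4.84 ± 0.812 FPKM. SPA1 held 44.0 ± 1.27% of the summed FPKM of the class in WT and 37.1 ± 2.63% in DLK2-OE1. The sum itself was 54.9 ± 3.29 FPKM in WT and 43.3 ± 3.85 in DLK2-OE1, a ratio of 0.788 that became 0.887 with SPA1 left out. These levels and sums are descriptions without a test. Ratios of class sums, here and below, are on FPKM. The median log2 ratio on that scale was 0.14 over tested genes that reached 1 FPKM in 4 libraries. A ratio of 1 therefore lies below that median.

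Among the phytochromes, PHYA and PHYD were higher and PHYB, PHYC and PHYE lower in DLK2-OE1, and none passed by edgeR. DESeq2 called PHYA and PHYE (40%, against 13.8% of the genes it tested). An unadjusted p under 0.05 was found for 3 of the 5 (60%, against 26.3% of all tested genes). PHYA (AT1G09570; chromosome 1, minus strand, 3095160 to 3100819), the far-red receptor that is abundant in the dark and degraded in light, was at 114, 136, 123 and 155 CPM in WT. In DLK2-OE1 it was at 181, 169, 221 and 227 CPM. The genotypes did not overlap, and DLK2-OE1 replicates 3 and 4 were the highest. PHYA differed by 0.60 on the log2 scale (SE 0.14), a 1.51-fold difference, at adjusted p = 0.0504 by edgeR (just over the threshold) and 0.00245 by DESeq2. Over 18 alternatives its adjusted p ran from 0.00245 to 0.160, with 4 past the threshold. Those 4 were DESeq2 and the 3 limma-trend fits on FPKM (adjusted p of 0.0259, 0.0240 and 0.0420). On FPKM the values were 28.0, 32.6, 30.2 and 40.3 in WT and 51.2, 52.9, 56.9 and 56.5 in DLK2-OE1.

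PHYE, a light-stable phytochrome, was at 35.9, 36.5, 31.9 and 29.8 CPM in WT and at 26.7, 24.7, 24.8 and 26.9 CPM in DLK2-OE1. All DLK2-OE1 libraries were below all WT libraries. Its log2 fold change was -0.38 (SE 0.091), at adjusted p = 0.0524 by edgeR and 0.00594 by DESeq2, and the adjusted p lay between 0.00594 and 0.276 over 18 alternatives. Leaving out WT replicate 4 (adjusted p = 0.0492) or DLK2-OE1 replicate 4 (0.0407) brought PHYE past the threshold. PHYB, the main red light and shade receptor, was at 155, 181, 192 and 184 CPM in WT and 141, 134, 177 and 188 CPM in DLK2-OE1. Its genotypes overlapped, and DLK2-OE1 replicates 1 and 2 were the lowest. PHYB differed by -0.15 on the log2 scale (SE 0.14, adjusted p = 0.50). PHYC and PHYD had log2 fold changes of -0.20 (SE 0.075) and 0.30 (SE 0.16), with adjusted p of 0.132 and 0.253 by edgeR, and only PHYC was apart between the genotypes in CPM.

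In WT, PHYB at 42.3 ± 4.39 FPKM and PHYA at 32.8 ± 5.37 FPKM (SD, n = 4) overlapped, followed by PHYC at 10.8 ± 0.609, PHYE at 8.71 ± 0.585 and PHYD at 2.94 ± 0.586 FPKM. The order of the top pair was the reverse in DLK2-OE1, where PHYA was at 54.4 ± 2.76 and PHYB at 41.8 ± 3.10 FPKM. PHYA held 33.5 ± 2.63% of the summed phytochrome FPKM in WT and 46.0 ± 1.02% in DLK2-OE1, and PHYB 43.4 ± 2.22% and 35.3 ± 1.51%. The class sum was 97.6 ± 8.89 FPKM in WT and 118 ± 3.96 in DLK2-OE1, a ratio of 1.21, or 1.38 without PHYB.

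The cryptochromes, blue light receptors that inhibit COP1/SPA, did not pass by any of edgeR, DESeq2 and limma-voom, and neither had an unadjusted p under 0.05. CRY1 was at 341, 370, 376 and 369 CPM in WT and 282, 218, 354 and 321 CPM in DLK2-OE1, with the lowest values in DLK2-OE1 replicates 2 and 1. The genotypes overlapped, and the log2 fold change was -0.31 (SE 0.15, adjusted p = 0.231). CRY2, the light-labile cryptochrome, had a log2 fold change of -0.13 (SE 0.12) and an adjusted p of 0.518. In WT, CRY1 at 135 ± 8.25 FPKM was above CRY2 at 100.3 ± 9.63 FPKM in every library.

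The phototropins control bending to light, chloroplast movement and stomatal opening, and NPH3 is the adaptor protein through which PHOT1 drives bending. PHOT2 was lower and NPH3 higher in DLK2-OE1, both called by DESeq2 and neither by edgeR. The 2 DESeq2 calls are 66.7% of the 3 genes, against 13.8% of the genes it tested. PHOT2 was at 296, 305, 330 and 293 CPM in WT and 223, 179, 240 and 246 CPM in DLK2-OE1, with no overlap. Its log2 fold change was -0.46 (SE 0.12), at adjusted p = 0.0653 by edgeR and 0.00406 by DESeq2, and the adjusted p lay between 0.00406 and 0.228 over 18 alternatives. It passed without DLK2-OE1 replicate 4 (adjusted p = 0.0446). The antisense locus AT5G58150 overlaps PHOT2 over 2760 bases and was at 0 counts in all libraries. NPH3 was at 66.9, 69.0, 64.5 and 90.1 CPM in WT and at 107, 105, 100.2 and 97.2 CPM in DLK2-OE1. WT replicate 4 was the highest of its group but still below all DLK2-OE1 libraries. NPH3 differed by 0.50 on the log2 scale (SE 0.12), at adjusted p = 0.0516 by edgeR and 0.00300 by DESeq2, and the adjusted p lay between 0.00300 and 0.205 over 18 alternatives. It passed without WT replicate 4 (0.0260) or DLK2-OE1 replicate 4 (0.0406).

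PHOT1, the phototropin of high sensitivity, was the most abundant receptor of the list in WT at 214 ± 27.9 FPKM, above PHOT2 at 68.1 ± 6.37 and NPH3 at 26.6 ± 5.32 FPKM (SD, n = 4). It was at 630, 762, 784 and 816 CPM in WT and 691, 582, 766 and 737 CPM in DLK2-OE1. These overlapped, with a log2 fold change of -0.11 (SE 0.14) and an adjusted p of 0.657 by edgeR. UVR8, the UV-B receptor, was among the members that differed least. It was at 112, 131, 121 and 114 CPM in WT and 115, 115, 116 and 123 CPM in DLK2-OE1, with a log2 fold change of -0.026 (SE 0.088) and an adjusted p of 0.879 by edgeR. RUP1 and RUP2 return UVR8 to its inactive dimer. RUP1 was at 7.61, 10.6, 7.75 and 10.7 CPM in WT and 9.87, 7.77, 13.7 and 10.4 CPM in DLK2-OE1, which overlapped (log2 fold change 0.19, SE 0.20, adjusted p = 0.571 by edgeR). RUP2 was near 3 CPM in both groups, at 3.13 ± 0.390 and 3.08 ± 0.427 (SD, n = 4). In WT, UVR8 at 53.5 ± 3.02 FPKM stood above RUP1 at 6.35 ± 1.29 and RUP2 at 2.13 ± 0.310 FPKM in all libraries.

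**Figure D3:**
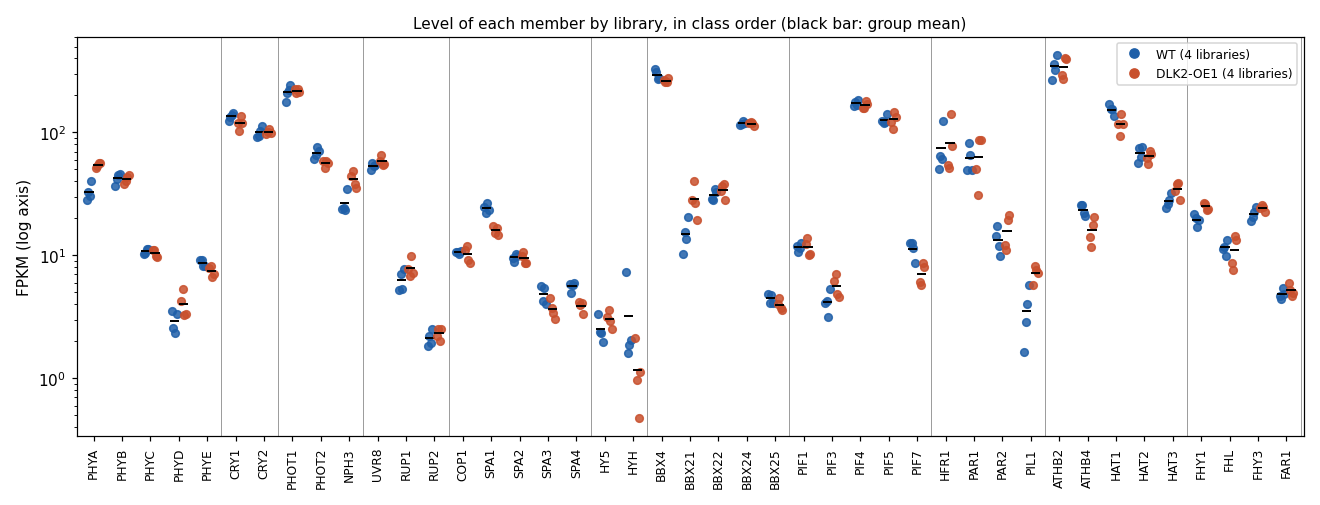
FPKM of each member on a log axis in each library (WT blue, DLK2-OE1 red, 4 libraries each), with group means as black bars and grey lines between classes. Levels in WT span from ATHB2 at a mean of 345 FPKM to RUP2 at 2.13 FPKM.

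HY5 and HYH are bZIP factors that promote light responses and are substrates of COP1. Both were at low level in these leaves, and neither passed by edgeR, DESeq2 or limma-voom. HYH alone had an unadjusted p under 0.05 (50%, against 26.3% of all tested genes). HY5 was at 3.24, 2.36, 2.24 and 1.79 CPM in WT and 2.65, 2.70, 2.68 and 2.37 CPM in DLK2-OE1 (log2 fold change 0.12, SE 0.22, adjusted p = 0.774 by edgeR). HYH was at 4.95, 1.08, 1.24 and 1.28 CPM in WT and 1.20, 0.515, 0.322 and 0.733 CPM in DLK2-OE1. WT replicate 1 stood far above all other libraries, with 84 counts against 22 to 25 in the other WT libraries and 6 to 24 in DLK2-OE1. HYH differed by -1.61 on the log2 scale (SE 0.61, adjusted p = 0.140), and by -0.79 (adjusted p = 0.330) without that library. On FPKM the class sum had a DLK2-OE1 to WT ratio of 0.736, and HY5 alone a ratio of 1.21. The sum was 10.7 FPKM in WT replicate 1 against 4.00 to 4.21 in the other WT libraries, and without that library the ratio of the class sums was 1.04.

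Among the B-box proteins, zinc-finger factors that act with or against HY5, BBX21 was higher and the other 4 lower in DLK2-OE1 in CPM. In FPKM BBX22 was higher too. None was called by edgeR, and DESeq2 called 1 of the 5 (20%, against 13.8% of the genes it tested). An unadjusted p under 0.05 was found for 3 (60%, against 26.3% of all tested genes). BBX21, an activator of HY5, was at 14.0, 21.5, 18.6 and 26.5 CPM in WT and 33.7, 43.2, 34.5 and 26.2 CPM in DLK2-OE1. DLK2-OE1 replicate 4 was just below WT replicate 4, and the other DLK2-OE1 libraries were above all WT libraries. BBX21 differed by 0.77 on the log2 scale (SE 0.20), at adjusted p = 0.0642 by edgeR and 0.00933 by DESeq2, and the adjusted p lay between 0.00933 and 0.303 over 18 alternatives. It passed without WT replicate 4 (0.0498) or DLK2-OE1 replicate 4 (0.0294). BBX4, the most abundant of the class at 296 ± 27.1 FPKM in WT (SD, n = 4), was at 397, 387, 328 and 316 CPM in WT and 281, 245, 297 and 330 CPM in DLK2-OE1. Its genotypes overlapped (log2 fold change -0.31, SE 0.13, adjusted p = 0.181 by edgeR). BBX22, BBX24 and BBX25 had log2 fold changes of -0.017, -0.15 and -0.33 with adjusted p of 0.942, 0.336 and 0.172. BBX25, which with BBX24 opposes HY5, was apart in CPM, and its DLK2-OE1 libraries all lay between 4.21 and 4.25 CPM. In WT the order was BBX4, BBX24 at 119 ± 4.09, BBX22 at 31.3 ± 3.25, BBX21 at 15.0 ± 4.33 and BBX25 at 4.48 ± 0.405 FPKM, with no overlap between neighbours.

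Of the PIFs, PIF7 was lower in DLK2-OE1 and was called by DESeq2 but not by edgeR or limma-voom. This 1 call is 20% of the 5 PIFs, against 13.8% of the genes that DESeq2 tested. An unadjusted p under 0.05 was found for 1 of the 5 (20%, against 26.3% of all tested genes). PIF7, the PIF that dominates the response to low ratios of red to far-red light, was at 18.3, 18.6, 16.5 and 11.7 CPM in WT and 7.51, 6.44, 11.9 and 11.3 CPM in DLK2-OE1. DLK2-OE1 replicates 1 and 2 were well below the rest, while WT replicate 4 fell between DLK2-OE1 replicates 3 and 4. PIF7 differed by -0.81 on the log2 scale (SE 0.23), at adjusted p = 0.0717 by edgeR and 0.0166 by DESeq2, and the adjusted p lay between 0.0166 and 0.306 over 18 alternatives. It passed without DLK2-OE1 replicate 3 (0.0481) or 4 (0.0441), and was -0.47 without both DLK2-OE1 replicates 1 and 2 (adjusted p = 0.306). PIF7 shares 318 bases with AT5G61260 on the other strand, which had 6 to 22 counts in a library. PIF4, which drives elongation growth in warmth and shade, was the most abundant PIF in WT at 173 ± 9.20 FPKM, followed by PIF5 at 126 ± 10.2 FPKM. PIF1 at 11.7 ± 0.813 and PIF7 at 11.4 ± 1.89 FPKM overlapped, and PIF3 was lowest at 4.21 ± 0.901 FPKM (SD, n = 4). PIF4 was at 306, 335, 310 and 323 CPM in WT and 258, 232, 321 and 313 CPM in DLK2-OE1, so only DLK2-OE1 replicates 1 and 2 lay below WT. Its log2 fold change was -0.18 (adjusted p = 0.400). For PIF1, which represses seed germination, PIF3 and PIF5 the log2 fold changes were -0.16, 0.26 and -0.11, with adjusted p of 0.244, 0.305 and 0.693.

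HFR1, PAR1 and PAR2 are atypical HLH proteins that bind PIFs and keep them from DNA, and PIL1, a bHLH gene rapidly induced by shade, acts alongside them. None of the 4 passed by edgeR, DESeq2 or limma-voom. PIL1 alone had an unadjusted p under 0.05 (25%, against 26.3% of all tested genes). PIL1 was at 2.65, 4.77, 6.46 and 8.78 CPM in WT and 8.06, 10.5, 11.9 and 11.5 CPM in DLK2-OE1. Only WT replicate 4 reached into the DLK2-OE1 range. PIL1 differed by 0.88 on the log2 scale (SE 0.31, adjusted p = 0.120). HFR1 was at 66.9, 88.3, 80.7 and 154 CPM in WT and 63.4, 54.1, 181 and 102 CPM in DLK2-OE1. It varied more within genotypes than between them, with a log2 fold change of 0.033 and an adjusted p of 0.968 by edgeR. PAR1 was at 44.5, 74.0, 58.4 and 41.4 CPM in WT and 38.7, 21.6, 73.7 and 75.4 CPM in DLK2-OE1, with its lowest values in DLK2-OE1 replicates 2 and 1. PAR1 and PAR2 had log2 fold changes of -0.063 and 0.12 with adjusted p of 0.933 and 0.832. In WT, HFR1 at 74.6 ± 32.8 and PAR1 at 61.7 ± 15.3 FPKM overlapped, PAR2 was at 13.4 ± 3.28 FPKM, and PIL1 was lowest at 3.56 ± 1.75 FPKM (SD, n = 4).

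HYH and the HFR1, PAR and PIL1 class had the largest relative spread of all members between WT libraries. The coefficient of variation of CPM in WT was 87.9% for HYH, 45.8% for PIL1 and 39.9% for HFR1, against a median of 12.7% over all tested genes. In DLK2-OE1 it was 57.6% for HFR1, 54.6% for HYH, 50.8% for PAR1 and 40.3% for PAR2, against a median of 17.0%. At the other end, PHYC, PIF1, BBX24 and PIF4 had 4.09% to 4.18% in WT.

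The HD-ZIP II factors, shade-induced homeodomain genes, did not pass by edgeR, DESeq2 or limma-voom. An unadjusted p under 0.05 was found for 2 of 5 (40%, against 26.3% of all tested genes). ATHB4 was at 26.1, 26.9, 22.3 and 20.2 CPM in WT and 12.6, 9.40, 17.2 and 20.7 CPM in DLK2-OE1. It overlapped between the genotypes in CPM, through DLK2-OE1 replicate 4, but not in FPKM. Its log2 fold change was -0.68 (SE 0.22, adjusted p = 0.104), and without DLK2-OE1 replicate 4 it was -0.88 (0.0308). HAT1 was at 219, 203, 201 and 164 CPM in WT and 131, 94.5, 174 and 149 CPM in DLK2-OE1 (log2 fold change -0.52, SE 0.18, adjusted p = 0.118 by edgeR). ATHB2, a widely used shade marker and the most abundant of all members at 345 ± 67.0 FPKM in WT (SD, n = 4), was at 335, 461, 399.7 and 502 CPM in WT and 317, 265, 483 and 482 CPM in DLK2-OE1. DLK2-OE1 replicates 1 and 2 lay below every WT library, and replicates 3 and 4 lay within the WT range. For ATHB2 the log2 fold change was -0.13 (adjusted p = 0.736). HAT2 and HAT3 had log2 fold changes of -0.22 and 0.18, with adjusted p of 0.404 and 0.332. In WT, ATHB2 was followed by HAT1 at 154 ± 14.2 and HAT2 at 67.7 ± 9.02 FPKM, while HAT3 at 27.7 ± 3.35 and ATHB4 at 23.6 ± 2.46 FPKM overlapped.

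FHY3 and FAR1, transposase-derived factors that activate FHY1 and FHL, did not differ beyond their spread, and no gene of this class passed by edgeR, DESeq2 or limma-voom or had an unadjusted p under 0.05. FHY3 was at 65.5, 71.7, 77.1 and 79.8 CPM in WT and 71.6, 68.8, 80.5 and 76.3 CPM in DLK2-OE1 (log2 fold change 0.015, adjusted p = 0.937 by edgeR). FHL was at 13.4, 13.7, 11.7 and 13.6 CPM in WT and 7.51, 6.22, 14.4 and 13.3 CPM in DLK2-OE1. DLK2-OE1 replicates 1 and 2 were far below and replicates 3 and 4 near WT, and the log2 fold change was -0.35 (SE 0.25, adjusted p = 0.411). FHY1 and FAR1 had log2 fold changes of 0.22 and -0.044, with adjusted p of 0.203 and 0.824. In WT, FHY3 at 21.8 ± 2.50 and FHY1 at 19.6 ± 1.84 FPKM overlapped, above FHL at 11.6 ± 1.44 and FAR1 at 4.85 ± 0.420 FPKM (SD, n = 4).

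The split within DLK2-OE1 ran through many members. DLK2-OE1 replicates 1 and 2 were both below replicates 3 and 4 at 23 of the 43 members (53.5%), against 32.0% of all tested genes. Among them were PHYA, PHYB, CRY1, CRY2, PHOT1, PIF4, PIF5, PIF7, HFR1, PAR1, ATHB2, HAT1 and FHL. The reverse was seen at 5 members (11.6%), PHYD, NPH3, COP1, PIF1 and PIF3, against 36.4% of all tested genes. SPA1 and SPA4 were in neither set. The 43 genes are not independent samples, and no test was made of these shares.

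**Figure D4:**
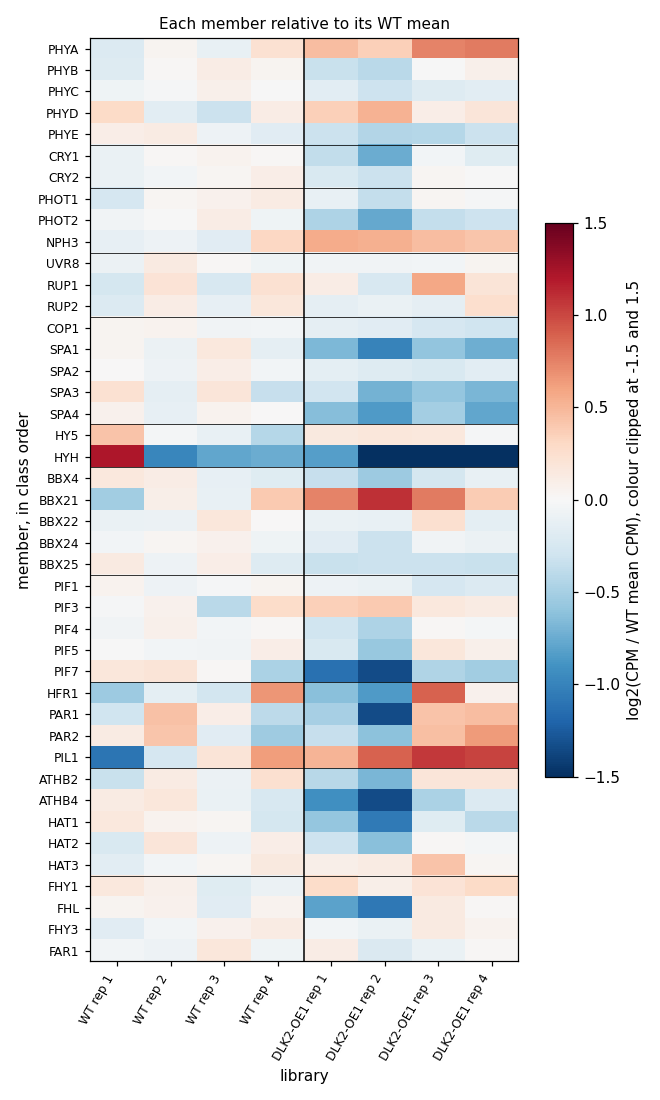
Log2 of CPM over the WT mean for each member and library, red above and blue below the WT mean, with colour clipped at -1.5 and 1.5. SPA1 and SPA4 are blue in all 4 DLK2-OE1 libraries and PHYA and NPH3 red in all 4. Within DLK2-OE1, FHL, PAR1 and ATHB2 are blue in replicates 1 and 2 only, and some WT libraries are blue at these genes too.

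Ratios of a pair of genes in the same library do not depend on how the library is scaled. Of the 70 pairs of members within a class, 17 had FPKM ratios that did not overlap between the genotypes. For count ratios it was 18. No such share was computed for pairs of other genes. Among single tested genes, 15.5% did not overlap in FPKM. Pairs also share members, so these counts are not a result about the classes. The 17 pairs apart in FPKM reached p = 0.0286 (exact permutation over all 70 assignments of the 8 libraries to genotypes, two-sided). This is the smallest p this design can give. After Benjamini-Hochberg adjustment over the 70 pairs the smallest value was 0.118, so 0 pairs passed. A pair could pass only if many others also reached that smallest p, so this outcome decides nothing about a single pair. These ratios were added after the data had been seen and are given as values. The ratio of PHYA to PHYB was 0.769, 0.785, 0.665 and 0.879 in WT and 1.34, 1.31, 1.3 and 1.26 in DLK2-OE1. It was thus below 1 in every WT library and above 1 in every DLK2-OE1 library, a difference of 0.76 on the log2 scale. PHOT1 to PHOT2 was 2.90, 3.24, 2.92 and 3.49 in WT and 3.84, 4.11, 3.91 and 3.75 in DLK2-OE1, and PHOT1 to NPH3 was 7.10 to 9.52 in WT and 4.31 to 5.99 in DLK2-OE1.

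Within the COP1 and SPA class, 4 of 10 pairs were apart, against 17 of the 70 pairs over all classes. SPA1 to SPA2 was 2.56, 2.49, 2.62 and 2.36 in WT and 1.74, 1.43, 1.95 and 1.69 in DLK2-OE1. SPA2 to SPA4 was 1.65, 1.80, 1.77 and 1.65 in WT and 2.39, 2.73, 2.09 and 2.57 in DLK2-OE1. COP1 to SPA1 was 0.379 to 0.480 in WT and 0.552 to 0.778 in DLK2-OE1. SPA1 and SPA4 were thus lower relative to COP1 and to SPA2 in every DLK2-OE1 library than in any WT library. The other pairs apart were PHYA to PHYC and to PHYE, PHYD to PHYE, PHOT2 to NPH3, COP1 to SPA4, BBX21 to BBX22, BBX24 and BBX25, PIF1 to PIF3, PIF5 to PIF7 and HAT1 to HAT3.

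**Figure D5:**
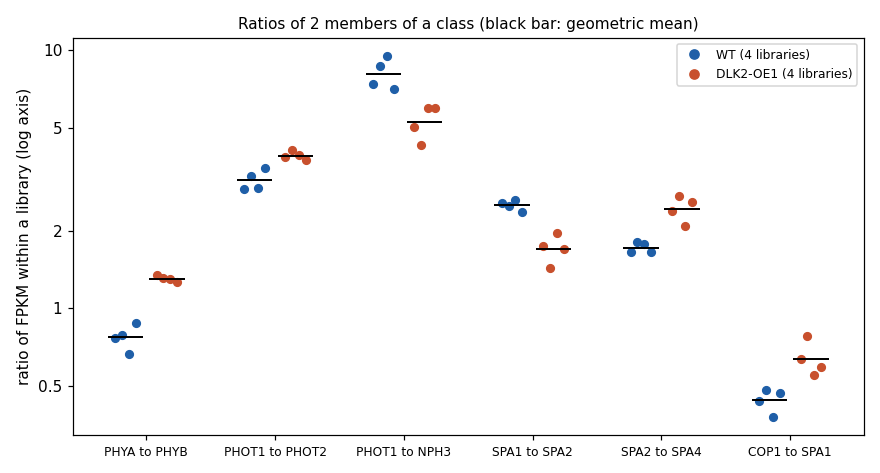
Ratio of FPKM within a library, on a log axis, for 6 pairs of members (WT blue, DLK2-OE1 red, 4 libraries each, geometric mean as a black bar). The 6 pairs shown are among those whose genotypes do not overlap, and PHYA to PHYB lies below 1 in WT and above 1 in DLK2-OE1.

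Of 48 further genes of the pathway, 40 could be tested, of which 4 rose, 1 fell and 35 did not pass. The 5 calls are 12.5% of these 40 genes, against 3.69% of all tested genes. DESeq2 called 9 of them (22.5%, against 13.8%) and limma-voom 2, against 1.46% of all tested genes. Their median log2 fold change was -0.12, against 0.0039 over all tested genes. None of the 6 genes of the DET1 and COP9 complexes, which work with COP1 in protein turnover, passed by edgeR, DESeq2 or limma-voom or had an unadjusted p under 0.05. The same held for 3 other BBX genes. Of 5 outputs of HY5 and UV-B signalling none passed by these tools. An unadjusted p under 0.05 was found for 1 (20%, against 26.3% of all tested genes). Among 12 partners of the receptors, CIB1, a bHLH factor that binds CRY2 in blue light, rose from 5.64 ± 1.32 to 16.5 ± 3.88 CPM (SD, n = 4). By edgeR, CIB1 was the only call of the 12 partners (8.33%, against 3.69%), as it was by limma-voom, against 1.46% of all tested genes. DESeq2 called 4 of the 12 (33.3%, against 13.8%). The log2 fold change of CIB1 was 1.55 (SE 0.22, adjusted p = 0.0189). Among 4 other bHLH genes, edgeR called BEE1 alone (25%, against 3.69%), DESeq2 called 2 (50%, against 13.8%) and limma-voom 0. BEE1, a growth-promoting bHLH gene induced by brassinosteroid, rose from 5.52 ± 2.34 to 18.0 ± 7.08 CPM. The log2 difference was 1.71 (SE 0.35) at adjusted p = 0.0412.

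Of 10 outputs of shade and PIFs, 2 rose and 1 fell, or 30% against 3.69% of all tested genes. DESeq2 called the same 3 genes (30%, against 13.8% of the genes it tested). With limma-voom FT alone passed, against 1.46% of all tested genes. IAA19, an auxin-response repressor, rose from 15.4 ± 4.13 to 26.7 ± 2.47 CPM, a log2 difference of 0.79 (SE 0.17) at adjusted p = 0.0449. XTH15, a gene of cell wall remodelling, rose from 4.46 ± 0.961 to 8.74 ± 1.91 CPM, a log2 difference of 0.97 (SE 0.22) at adjusted p = 0.0468. FT, the mobile flowering signal made in the phloem, fell from 12.5 ± 2.80 to 4.17 ± 2.23 CPM, a log2 difference of -1.59 (SE 0.36) at adjusted p = 0.0467. Their genotypes did not overlap. The shade-induced auxin synthesis genes YUC2, YUC5, YUC8 and YUC9 had log2 fold changes of -0.77, -0.66, -0.70 and -0.59, and none passed. The median of the 10 was -0.62, against 0.0039 over all tested genes. Of 15 clock genes, 12 were negative with a median of -0.38, and LNK1, a co-activator of the clock, fell from 43.2 ± 4.93 to 23.7 ± 1.87 CPM, a log2 difference of -0.86 (SE 0.10) at adjusted p = 0.0147. This 1 call is 6.67% of the 15, against 3.69% of all tested genes, and 7 (46.7%, against 26.3%) had an unadjusted p under 0.05. DESeq2 called 5 of the 15 (33.3%, against 13.8% of the genes it tested), which were CCA1, LHY, GI, ELF4 and LNK1. With limma-voom LNK1 alone passed, against 1.46% of all tested genes. The harvest time of the libraries is not in the labels.

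These calls too depended on single libraries. CIB1 and LNK1 lost them without WT replicate 1 (adjusted p of 0.0685 and 0.0670) or WT replicate 3 (0.0893 and 0.0548), and CIB1 also without DLK2-OE1 replicate 1 (0.0667). BEE1, IAA19, XTH15 and FT each lost their call without WT replicate 1, 2 or 3 or DLK2-OE1 replicate 1, with adjusted p of 0.0898 to 0.154. BEE1, FT and IAA19 also lost it without DLK2-OE1 replicate 2 (0.0689, 0.0573 and 0.0840), FT and XTH15 without WT replicate 4 (0.0749 and 0.0608), and XTH15 without DLK2-OE1 replicate 3 (0.0565). Without both DLK2-OE1 replicates 1 and 2, where the meristem, xylem and epidermis markers were highest, CIB1 (0.0686), BEE1 (0.184), IAA19 (0.201), XTH15 (0.0732) and FT (0.125) did not pass. With limma-voom, BEE1 (0.0567), IAA19 (0.0509) and XTH15 (0.0772) did not pass.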

How the data were processed

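RNA-seq was made from rosette leaves with oligo(dT) selection, a NEBNext Ultra kit and an Illumina NovaSeq, per the labels' protocols. Per the submitters' processing notes, which give neither role nor order, the tools were RSEM, HISAT2, Bowtie2 2.2.8, edgeR, DESeq2, StringTie 1.3.1 and fastp 0.18.0, on the TAIR10 build. No strand setting is named, so whether reads of overlapping genes on opposite strands were told apart is not known. The authors deposited 1 table per library with counts and FPKM side by side, per the file headers, in 27634 rows, of which 218 carry StringTie names of assembled loci. The counts are whole numbers, and whether they were rounded is not stated in the labels.

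Groups came from the labels. The 43 members were found by locus. Members, gene lists and markers were chosen with earlier results of these data known, so the counts are no independent support. Counts were fitted in R 4.3.3 with edgeR 4.0.16 (filterByExpr, TMM, glmQLFit with robust estimation, glmQLFTest) over all 8 libraries with genotype only, and Benjamini-Hochberg adjustment over 18155 genes at a threshold of 0.05. SE was taken as log2 fold change / sqrt(F). The common biological coefficient of variation was 0.222, and total counts of 18097159 to 22139801 set the precision. Replicates within a group differed beyond sampling noise (chi-square per degree of freedom 11.0 to 104), so each counted once. Full values are given for members called by edgeR, DESeq2 or limma-voom and, per class, for the most abundant in WT and the one of largest log2 fold change; others named with values in every library were picked after their values were seen. Alternatives were limma-voom, DESeq2 1.42.0, its size factors in edgeR, an unfiltered table, a floor of 10 counts in 4 libraries, limma-trend (limma 3.58.1) on log2(FPKM + 1) and log2(FPKM + 0.1) with a floor of 1 FPKM in 4 libraries, a replicate block, and omission of each library and of DLK2-OE1 replicates 1 and 2 together. The edgeR procedure was run on simulated counts, drawn independently for each library and without the split within DLK2-OE1. That run is no support for the calls given here. Gene names, coordinates and sequences came from RefSeq's TAIR10.1. The upstream windows were read by coordinates from that genome.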

Additional observations from a re-analysis of the deposited data

Results flagged for a closer look

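In a group of 4 libraries, 1 library stood far from the other 3 at 7 members, by a gap that is a large share of the group's whole range. By chance such a gap is found in about 1 of 20 groups, and 88 groups of 44 genes, DLK2 included, were looked at. HYH was at 4.95 CPM in WT replicate 1 against 1.08 to 1.28 CPM in the other WT libraries, and its difference between the genotypes depends on that library. FHL was at 11.7 CPM in WT replicate 3 against 13.4 to 13.7, and FAR1 at 17.7 CPM in the same library against 14.9 to 15.3. In DLK2-OE1 replicate 4, UVR8 was at 123 CPM against 115 to 116, RUP2 at 3.72 CPM against 2.84 to 2.92, and HY5 at 2.37 CPM against 2.65 to 2.70. BBX22 was at 50.0 CPM in DLK2-OE1 replicate 3 against 38.3 to 39.6. None of these 7 genes passed the edgeR test.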

How the results depend on the processing

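The count of all genes past the threshold, 670, was 2823 with DESeq2, 265 with limma-voom, 288, 355 and 126 with limma-trend on log2(FPKM + 1), log2(FPKM + 0.1) and log2(FPKM + 1) with no filter, and 60 without both DLK2-OE1 replicates 1 and 2. It ran from 0 (without WT replicate 3, with 3599 genes at an unadjusted p under 0.05) to 2191 (without DLK2-OE1 replicate 4) when 1 library was left out. The 2 members called became 9 with DESeq2, 0 without both DLK2-OE1 replicates 1 and 2 (14 at an unadjusted p under 0.05), and 0 to 8 when 1 library was left out. Omitting WT replicate 1, WT replicate 3 or DLK2-OE1 replicate 1 gave 0, with 14 or 15 at an unadjusted p under 0.05, and omitting replicate 4 gave 5 (WT) and 8 (DLK2-OE1). On FPKM the 2 members were PHYA and SPA1, and in the other edgeR settings on all libraries SPA1 and SPA4. The cause of these shifts was not tested, though omissions leave fewer libraries.

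With replicate numbers as a block, 245 genes and the same 2 members passed (SPA1 0.0382, SPA4 0.0444), and BEE1, IAA19 and XTH15 did not (0.0739, 0.0537 and 0.105). The numbers did not pair the libraries: deviations of same-numbered libraries correlated at -0.0292, 0.0617, 0.123 and -0.0951, and no library matched its own number best. Across 18 alternatives, SPA1 passed in 14 and SPA4 in 11. Leaving out the most abundant gene of a class moved the ratio of summed FPKM to 1.38 (phytochromes), 0.887 (COP1 and SPA), 1.21 (HY5 and HYH) and 1.09 (BBX). On FPKM the median log2 ratio over tested genes was 0.14, so a turn across 1 is not a turn across the median gene. With 1 library left out, a choice made after seeing the data, the ratio turned to the other side of 1 for HY5 and HYH (1.04 without WT replicate 1), phototropins and NPH3 (0.976, same library), PIF (1.01 without WT replicate 4 or DLK2-OE1 replicate 2) and HFR1, PAR and PIL1 (0.906 without DLK2-OE1 replicate 3).

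Of 50 genes over 18 alternatives, the sign turned in 64 of the cases, none in a called gene. With limma-trend at pseudocounts of 1 and 0.1, with the values for 1 also holding with no filter, the log2 fold changes became positive for BBX22 (0.12, 0.13), CRY2 (0.016 in both), FAR1 (0.087, 0.10), PHOT1 (0.038 in both), PIF5 (0.011 in both), RUP2 (0.087, 0.12) and UVR8 (0.12 in both). HFR1 turned to -0.036 with limma-voom and -0.068 with the replicate block. Without both DLK2-OE1 replicates 1 and 2, values turned to 0.20 (ATHB2), 0.076 (BBX22), 0.021 (CRY2), 0.088 (FHL), 0.0062 (HAT2), 0.46 (PAR1), 0.017 (PHOT1), 0.048 (PHYB), 0.0049 (PIF4), 0.14 (PIF5), 0.080 (RUP2) and 0.0090 (UVR8). With 1 library left out, the log2 fold change ran from -0.26 to 0.012 for ATHB2, -0.12 to 0.042 for BBX22, -0.10 to 0.014 for FAR1, -0.040 to 0.051 for FHY3, -0.42 to 0.34 for HFR1, -0.015 to 0.29 for HY5, -0.30 to 0.20 for PAR1, -0.10 to 0.31 for PAR2, -0.22 to 0.017 for PIF5, -0.13 to 0.028 for RUP2 and -0.060 to 0.017 for UVR8.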
